A study of Mus musculus with 2 samples.

Results

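The mRNAs of Apoe, Trem2, Gpnmb, Spp1, Lgals3, Fabp5, Lpl, Cd9, Ctsb and Ctsd were followed through colitis-associated cancers (CACs) of mice, in single-cell RNA sequencing data of 11 annotated cell types and 2 libraries. These 10 mRNAs are known as a set expressed by lipid-associated macrophages. They were chosen by name, with earlier results of these data known, and all 10 were found among the 32291 genes of the table. Macrophages, annotated as MAC, were also split by Mrc1, the mannose receptor that is used as a marker of M2-like macrophages, into cells with and without a molecule of Mrc1 mRNA.

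Macrophages that engulf dying cells or lipid take up cholesterol and fatty acids, digest the material in lysosomes and export the surplus. In the lipid-associated state, the surface receptor Trem2 senses lipids and the mRNAs of lipid carriers, lipases and lysosomal proteases are raised together. The state is known from fat tissue, atherosclerotic lesions and tumors, where Spp1 and Apoe also serve as labels of tumor-associated macrophage subsets.

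The study asked how loss of the microRNA gene Mir34a in myeloid cells changes CACs. Both groups carried loxP-flanked Mir34a alleles on a C57Bl/6 background. Mir34a_F/F mice had no Cre, whereas in Mir34a_Mye_KO mice Cre was expressed from LysM-Cre, which acts in macrophages, monocytes and neutrophils alike. All mice, aged 6 to 10 weeks, went through 3 periods of 5 days with dextran sodium sulfate (DSS), which damages the colon, at 2.5% in the first and second and 2% in the third, with 16 days of water between them. Azoxymethane (AOM), a carcinogen, was injected at 10 mg/kg 5 days before the first and again before the second period, and the mice were killed on day 110. Per genotype, 6 to 8 tumors of 3 mice were pooled into 1 library, so that genotype, library and pool cannot be told apart and no test between genotypes was possible.

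The libraries held 20312 (Mir34a_F/F) and 18571 (Mir34a_Mye_KO) cells, with medians of 4787 and 7716 UMIs, the counted mRNA molecules, per cell. The library labelled Mir34a_Mye_KO was deeper in 11 of 11 cell types, by 1.11-fold in endothelial cells to 5.69-fold in B cells, and had the higher mitochondrial share in 11 of 11. The libraries shared 96 cell barcodes. In the table, a feature for the primary Mir34a transcript had 133 UMIs in macrophages of the Mir34a_F/F library and 462 in those of the Mir34a_Mye_KO library, mean levels of 0.072 and 0.11 UMIs per 10000, which goes against the direction of the labels, and features for the hairpin and the mature miRNA had 0. In macrophages, a feature for Cre was at 0 in either library, and a feature named for Cre and Lyz2 had 451 and 172 UMIs in the same order of libraries. It moved with Lyz2 itself, which had 3892 and 1379 UMIs, mean levels of 1.44 and 0.37. The feature named for Cre and Lyz2 was thus higher in the library labelled Mir34a_F/F, whose mice had no Cre. The LysM-Cre allele disrupts Lyz2. In T cells Lyz2 was lower in the Mir34a_Mye_KO library too, at mean levels of 0.045 and 0.016 from 57 and 27 UMIs. What Lyz2 says of the labels was not tested. Since what these features cover, and where they lie relative to the deleted stretch, is not given in the sources used here, the names below mean the libraries labelled Mir34a_F/F (F/F) and Mir34a_Mye_KO (Mye_KO).

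Cells annotated MAC numbered 2208 in the F/F and 2601 in the Mye_KO library, with medians of 7251.5 and 11227 UMIs. The summed level of 8 macrophage markers, among them Csf1r, Adgre1 and C1qa, was 50.6 and 58.8 UMIs per 10000 in these cells and 1.81 to 7.86 in the other cell types, so the label matched its markers. A summed level of 5 monocyte markers, which include Ly6c2 and Ccr2, was 19.5 and 13.0 in MAC, and that of 6 B and plasma cell markers, led by Igkc, was 12.6 and 41.0. The part of these markers in the results was not tested.

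Whether the mRNAs could pair with miR-34a was read from the reference, and the miRNA is shown because its deletion defines the groups. In the RefSeq annotation of GRCm38.p6, mature miR-34a-5p lies at chr4:150068473-150068494 on the plus strand, and capitals mark its seed, bases 2 to 8.
mmu-miR-34a-5p: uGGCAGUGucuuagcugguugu
The seed pairs with the letters CACTGCC of an mRNA. In the GENCODE annotation of mm10, the longest 3′ UTR held these letters in 0 of the 10 members and in 2999 of 21020 genes (14.3%). The longest 3′ UTRs of the members ran from 249 bases (Trem2) to 3594 bases (Ctsb), and the share of all genes was not matched for length. The result says only that these letters were not in these annotated 3′ UTRs.

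The members lie on 7 chromosomes. In mm10, Apoe lies at chr7:19696109-19699188, Trem2 at chr17:48346401-48354147 and Spp1 at chr5:104435118-104441050. Gpnmb lies at chr6:49036546-49070929 and Cd9 on the same chromosome at chr6:125460266-125494791. Lgals3 (chr14:47367751-47386160) and Ctsb (chr14:63122462-63145923) share chromosome 14. Fabp5 lies at chr3:10012548-10016607, Lpl at chr8:68880491-68907448 and Ctsd at chr7:142375911-142388038. The minus strand codes for Apoe, Cd9 and Ctsd. Of 7 members with a RefSeq promoter window (250 bases before to 50 after the start), Ctsd held the palindrome CACGTG, the core of the element that the lysosomal transcription factors Tfeb, Tfe3 and Mitf are known to bind. Both matches are shown in capitals on the minus strand of GRCm38.p6, at chr7:142388057-142388077 and chr7:142387910-142387935, at -245 and -98 relative to the RefSeq start of that window. This start lies inside the GENCODE gene given above, and so does the inner match.
Ctsd, outer match: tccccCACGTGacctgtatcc
Ctsd, inner match: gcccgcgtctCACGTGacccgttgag
The letters CACGTG were found in 2187 of 27025 genes with a window of this length (8.09%), and in 2349 of 32851 windows (7.15%) against 1 of the 10 windows of the members, and a match is a description and no site.

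Levels below are UMIs per 10000 counted in a cell, averaged over cells, with 95% intervals that cover counting error only, as do all intervals here. Macrophages had the highest level of Apoe, Trem2, Spp1, Lgals3, Ctsb and Ctsd in both libraries, which makes 6 of 10 members against 3.45% of all genes measured. Gpnmb, Fabp5, Lpl and Cd9 had their highest level elsewhere in at least 1 library. The members thus did not share 1 pattern over the cell types, as the plot of levels by cell type shows.

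**Figure D1:**
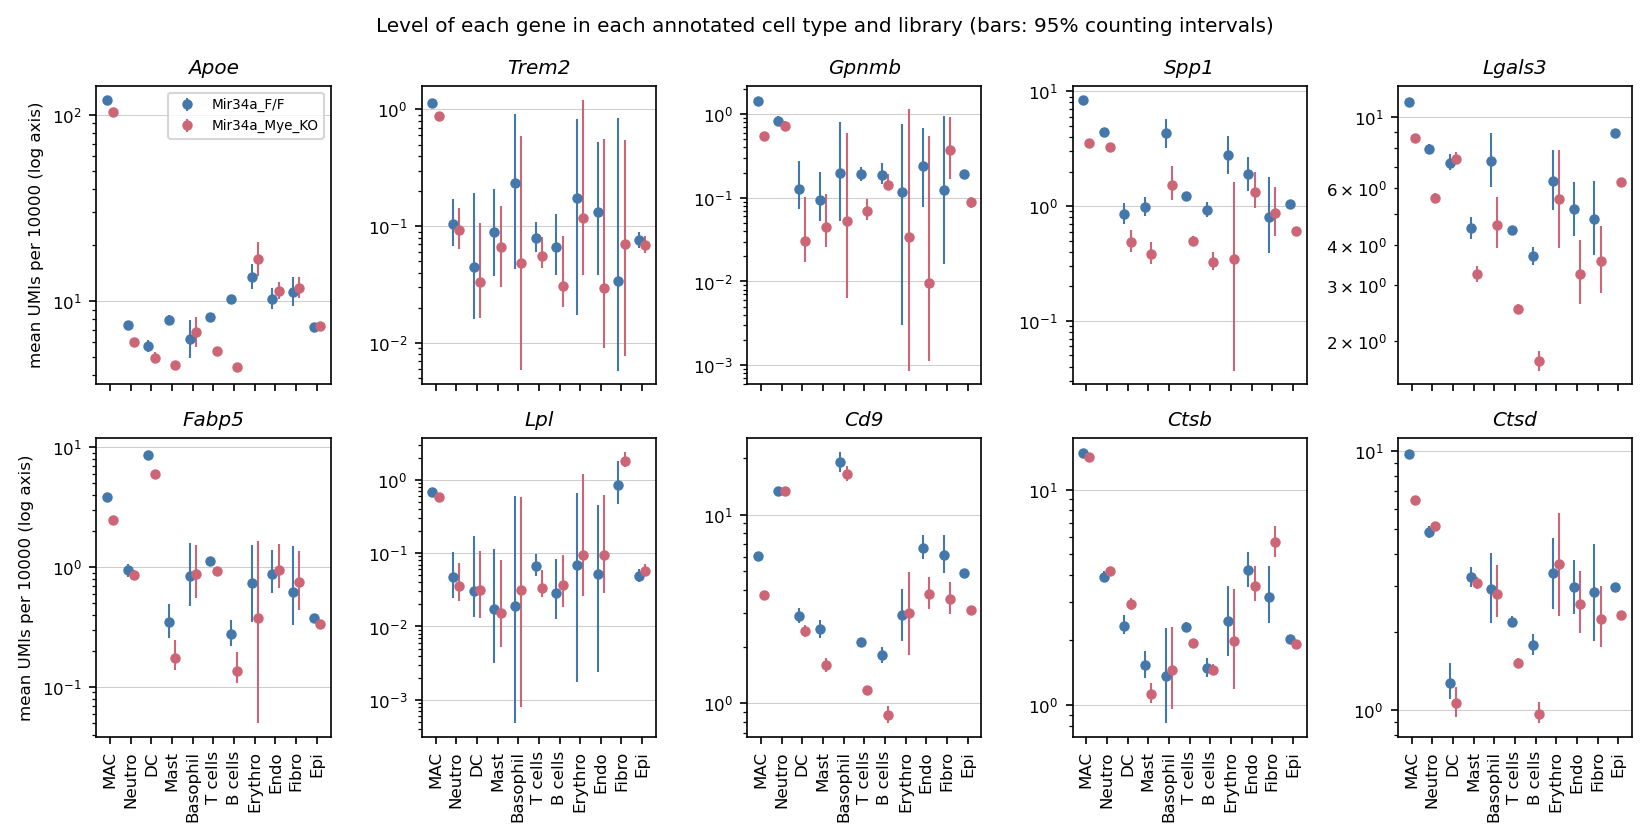
Level of each of the 10 mRNAs (y axis, mean UMIs per 10000 on a log axis) in the 11 annotated cell types (x axis) of the Mir34a_F/F (blue) and Mir34a_Mye_KO (red) libraries, with 95% counting intervals as bars. Apoe and Ctsb stand apart in MAC, whereas Cd9 is highest in basophils and neutrophils, Fabp5 in dendritic cells and Lpl in fibroblasts.

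Among the genes of lipid transport, Apoe, which carries cholesterol out of macrophages, reached 120.0 UMIs per 10000 (119.4 to 120.5) in F/F and 102.9 (102.4 to 103.4) in Mye_KO macrophages. Every other cell type lay between 4.41 and 16.8, and erythroid cells were next in both libraries. After each cell was thinned to 1000 UMIs, 80.8% and 82.9% of macrophages held an Apoe UMI. T cells, which are not known to express Apoe, gave 50.7% and 35.5%, at medians of 3548 and 8043 UMIs before thinning. Apoe UMIs were therefore spread over all cell types, and levels of T cells are given for comparison below. For other members T cells need not show background alone. Fabp5, for one, was at 1.12 and 0.93 in T cells and at 0.28 and 0.14 in B cells.

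Fabp5, an intracellular carrier of fatty acids, was highest in dendritic cells (DC), at 8.67 and 5.92, followed by macrophages at 3.83 and 2.46. All other types were at or below 1.12. Within DC thinned to 1000 UMIs, cells with a UMI of Ccr7, a marker of mature migratory DC, had 23.0 against 3.19 in cells without it in F/F, and 15.2 against 2.28 in Mye_KO. The log2 ratios were 2.85 (2.48 to 3.22) and 2.73 (2.33 to 3.14), so Fabp5 was concentrated in the Ccr7-positive 28.3% and 20.6% of DC in both libraries. Of all genes compared, 15.6% and 22.7% were at least 1.5-fold higher with Ccr7, with an interval off 0. The split by Ccr7 was added later.

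Lpl, the secreted lipase that frees fatty acids from lipoproteins, was found in macrophages and fibroblasts. Its level was 0.69 and 0.58 in macrophages and 0.85 (0.465 to 1.78) and 1.81 (1.48 to 2.40) in fibroblasts, which numbered 57 and 60 cells. The other types were at 0.094 or below, and T cells at 0.07 and 0.03. In F/F the intervals of fibroblasts and macrophages overlapped, and in Mye_KO they did not.

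Among the surface proteins, Trem2 was highest in macrophages, at 1.15 (1.09 to 1.21) and 0.88 (0.83 to 0.93). T cells were at 0.08 and 0.06, and the highest level outside macrophages was 0.24 in the 48 F/F basophils, with an interval of 0.043 to 0.918. In Mye_KO the interval of the 30 erythroid cells, 0.0383 to 1.21 around 0.12, overlapped that of macrophages. Trem2 was sparse, with a UMI in 9.99% and 7.75% of thinned macrophages against 0.87% and 0.38% of T cells.

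Gpnmb, a glycoprotein of lysosomes and the cell surface, was at 1.43 (1.37 to 1.5) in F/F and 0.55 (0.52 to 0.60) in Mye_KO macrophages. Neutrophils were at 0.83 (0.73 to 0.95) and 0.72 (0.65 to 0.82), below macrophages in F/F and above them in Mye_KO, and T cells were at 0.19 and 0.07. The order of macrophages and neutrophils thus changed between the libraries, while the level in neutrophils differed little. In neutrophils Gpnmb sat in few cells, with a UMI in 38 of 1026 (3.70%) and 23 of 1076 (2.14%) after thinning. These cells had Ctsb at 11.3 against 3.62 in F/F and 20.0 against 3.82 in Mye_KO, and Ctsd at 13.9 against 4.55 and 14.3 against 4.61. S100a8, which encodes a major neutrophil protein, was at 247.4 against 633.9 and 140.9 against 430.9. The macrophage marker C1qa was at 0.26 against 0.85 and 0.43 against 0.98, each from 1 UMI in the Gpnmb-positive cells. Lgals3 was at 14.5 against 7.70 and 12.2 against 5.79, and Fabp5 at 1.05 against 0.88, from 4 UMIs and without a ratio, and 7.83 against 0.74. Spp1 was at 7.37 against 4.47 in F/F and 1.30 against 3.24 in Mye_KO, the latter from 3 UMIs, and Cd9 at log2 ratios of 0.11 (-0.28 to 0.51) and -0.06 (-0.58 to 0.47). In these few cells 37.2% and 45.2% of all genes compared were called higher. This split was chosen after values had been seen.

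Cd9, a tetraspanin of the plasma membrane, was highest in basophils, at 19.0 and 16.5, and next in neutrophils, at 13.3 and 13.4. Macrophages were at 6.04 and 3.75, and endothelial cells (6.69 and 3.78) and fibroblasts (6.13 and 3.57) did not differ from them beyond the counting intervals. Basophils were only 48 and 40 cells, but the intervals of 16.8 to 21.5 and 15.1 to 18.2 lay above those of all other types. Cells annotated as basophils also held neutrophil markers, at a summed 460.3 and 396.6 against 4.88 to 33.0 in the other types apart from neutrophils, and the part of this in their Cd9 was not tested.

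Among the secreted and sugar-binding proteins, Spp1 (osteopontin) was at 8.33 (8.19 to 8.48) in F/F and 3.58 (3.50 to 3.67) in Mye_KO macrophages. Neutrophils followed at 4.46 and 3.30, and F/F basophils at 4.30 were not distinct from them. Epithelial cells were at 1.04 and 0.61 and T cells at 1.23 and 0.50. A UMI of Spp1 was present in 21.2% and 15.9% of thinned neutrophils and 10.1% and 4.43% of thinned T cells, so it was more frequent in neutrophils.

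Lgals3, which encodes the galectin-3 that binds sugars on glycoproteins, was the most evenly spread. Macrophages were at 11.2 and 8.63, epithelial cells at 8.91 and 6.30, DC at 7.22 and 7.43, and T cells at 4.43 and 2.51.

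For the lysosomal proteases, Ctsb was at 14.7 and 14.2 in macrophages and next highest in endothelial cells in F/F (4.24, not distinct from neutrophils at 3.93) and in fibroblasts in Mye_KO (5.69). Ctsd was at 9.78 and 6.51 in macrophages and at 4.86 and 5.13 in neutrophils. T cells were at 2.30 and 1.93 for Ctsb and at 2.19 and 1.51 for Ctsd.

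The genes whose levels over the 22 combinations of cell type and library were most like those of each member, by Pearson's r of log2 levels among 7050 genes, differed between members. The complement genes C1qc (r = 0.96), C1qb and C1qa were nearest to Apoe, and C1qa (0.93), C1qb and Ms4a7 to Trem2. Lpl was nearest to the matrix genes Olfml3 (0.97), Vcan and Col14a1. Spp1 was nearest to Cxcl3 (0.87), Chil3 and Thbs1, and Cd9 to Ets2 (0.88), Gsr and Cxcl2. Ctsb was nearest to Tgfbi (0.91), Lamp1 and Lipa, Ctsd to Pla2g7 (0.86), Fnip2 and Plin2, and Fabp5 to Arpc4 (0.91), Cfl1 and Batf3. Gpnmb had Esd (0.79), Sod2 and Ikbke, and Lgals3 had Gpx1 (0.85), AA467197 and Aldoa. The 22 values share 2 libraries and their depths, so these correlations are descriptions.

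Macrophages of the Mye_KO library had lower levels of Gpnmb, Spp1, Cd9, Fabp5 and Ctsd than those of the F/F library. A member was called where the levels differed by at least 1.5-fold and the 95% counting interval of the log2 ratio lay off 0. Of the 10 members, 5 were called lower and 0 higher, against 3.81% and 1.83% of the 8875 genes compared. Averaged over classes of cells of like depth, as given below, Gpnmb, Spp1 and Cd9 stayed called and Fabp5 and Ctsd did not. The median log2 ratio was -0.06 over all genes.

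From the levels given above, the log2 ratio of Mye_KO over F/F in macrophages was -1.36 (-1.47 to -1.26) for Gpnmb and -1.22 (-1.26 to -1.18) for Spp1, the largest differences. It was -0.69 (-0.74 to -0.64) for Cd9, -0.64 (-0.69 to -0.58) for Fabp5 and -0.59 (-0.63 to -0.55) for Ctsd. Trem2 at -0.39 (-0.49 to -0.29), Lgals3 at -0.37 (-0.41 to -0.34), Lpl at -0.25 (-0.38 to -0.12) and Apoe at -0.22 (-0.23 to -0.21) lay below the 1.5-fold limit. Ctsb, at -0.06 (-0.08 to -0.03), was at the median of all genes, although it encodes a protease of the same compartment as Ctsd. With 1 library per genotype these intervals say nothing of the spread between mice.

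The same direction was found in cells of other types. In T cells 6 members were called lower, against 8.87% of genes, with log2 ratios of -1.47 for Gpnmb, -1.31 for Spp1, -0.98 for Lpl, -0.85 for Cd9, -0.82 for Lgals3 and -0.59 for Apoe. In B cells 7 were called lower (26.7% of genes), in mast cells 5 (14.0%) and in epithelial cells 3 (4.49%), namely Gpnmb, Spp1 and Cd9. DC (5.90%), basophils (10.9%) and endothelial cells (8.68%) had 2 each, fibroblasts 1 (9.27%), and neutrophils (12.7%) and erythroid cells (4.15%) had 0. In erythroid cells 5 members had a ratio, and Spp1, without one, was at 2.80 and 0.35 from 45 and 2 UMIs. These counts include Lpl in T cells, Trem2 in B cells and Gpnmb in mast cells, which lay below the level of 0.1 asked of the genes in the shares. Spp1 was thus called lower in macrophages, T cells, B cells, DC, mast cells, basophils and epithelial cells. When the level of T cells of the same library was subtracted, the macrophage ratios were -1.35 for Gpnmb and -1.20 for Spp1. In this setting 5 members were called lower, and the share of all genes was not taken. Fabp5 moved from -0.64 to -0.82 and Lgals3 from -0.37 to -0.14. For Fabp5, which was higher in T cells than in B cells, the subtraction need not take away background RNA alone. The summed level of 6 epithelial markers moved the same way in every cell type. It went from 19.8 to 14.8 in macrophages, 26.1 to 14.2 in T cells and 23.0 to 9.98 in B cells. In mast cells it went from 25.1 to 12.8 and in epithelial cells from 72.3 to 49.4. It was also lower where 0 members were called lower, at 28.7 and 17.1 in neutrophils and 45.05 and 34.28 in erythroid cells. What part background RNA had in the library difference was not tested.

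**Figure D2:**
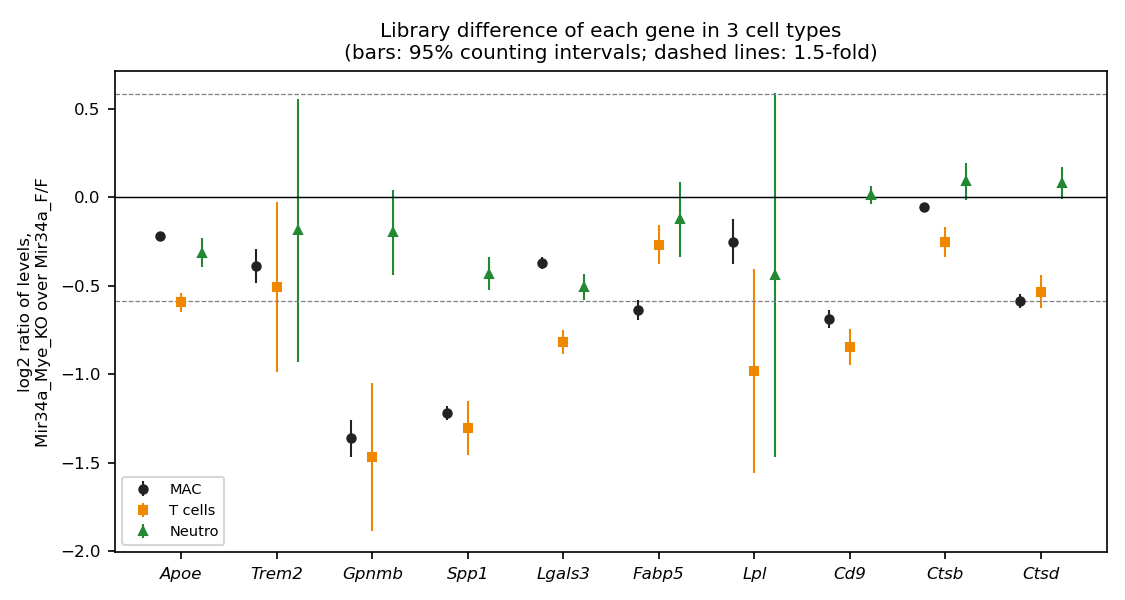
Log2 ratio of levels, Mir34a_Mye_KO over Mir34a_F/F (y axis), of the 10 mRNAs (x axis) in MAC (circles), T cells (squares) and neutrophils (triangles), with 95% counting intervals as bars and dashed lines at 1.5-fold. In MAC all 10 ratios are below 0, from -1.36 for Gpnmb to -0.06 for Ctsb, the ratios of Gpnmb and Spp1 in T cells are close to those in MAC, and those of Cd9, Ctsb and Ctsd in neutrophils are near 0.

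In neutrophils, in which LysM-Cre also acts, the intervals of 7 of 10 members held 0. The share of all genes whose interval held 0 was not taken, and the median log2 ratio of all genes was -0.15. Among the 7, the log2 ratios were 0.01 (-0.04 to 0.06) for Cd9, 0.08 (-0.01 to 0.17) for Ctsd, 0.09 (-0.01 to 0.19) for Ctsb and -0.20 (-0.44 to 0.04) for Gpnmb. Few UMIs left wide intervals for Trem2 (43 and 67 UMIs, -0.93 to 0.55) and Lpl (18 and 35 UMIs, -1.47 to 0.59). Apoe, at -0.31 (-0.40 to -0.23), Spp1, at -0.43 (-0.53 to -0.34), and Lgals3, at -0.51 (-0.58 to -0.43), were lower by less than 1.5-fold. The members called higher in fibroblasts were Lpl at 1.09 (0.29 to 1.90) and Ctsb at 0.84 (0.40 to 1.28), 2 of 8 with a ratio against 4.58% of genes, from 57 and 60 cells. In these cells the fibroblast markers were at 72.0 and 121.1 and the neutrophil markers at 32.4 and 4.88, and their part was not tested.

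The library difference depended on the depth of the cells. In macrophages above 10000 UMIs (756 and 1393 cells), all 10 members were lower in Mye_KO, from -0.44 for Ctsb to -2.01 for Gpnmb, with -1.42 for Ctsd and -1.25 for Lpl. In macrophages of 1000 to 3000 UMIs (357 and 562 cells), Gpnmb at -1.88, Spp1 at -1.46 and Cd9 at -0.49 were lower, whereas Apoe at 0.39, Fabp5 at 0.58, Lpl at 1.09 and Ctsb at 0.45 were higher. In those of 3000 to 10000 UMIs (1080 and 640 cells), Ctsd at 0.27 (0.19 to 0.35) and Lpl at 0.66 (0.37 to 0.96) were higher in Mye_KO, so the directions of Ctsd and Fabp5, which are among the 5 members called lower, turned with depth. Averaged over the 3 depth classes, Gpnmb (-1.39), Spp1 (-1.35) and Cd9 (-0.65) were called lower, and Ctsd and Fabp5 were at -0.44 and -0.43. Spp1 and Cd9 kept their direction in all 3 depth classes, with intervals off 0. Gpnmb was lower in each as well, but at -0.27 (-0.55 to 0.02) between 3000 and 10000 UMIs its interval held 0. These depth classes were chosen for this comparison after values had been seen. The shares of all genes were not taken within or over these classes. A shift common to all genes can therefore not be told apart from one of the members.

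The difference also varied with the kind of macrophage. In macrophages with a UMI of C1qa, a complement gene of mature macrophages, 47.9% of F/F and 56.0% of Mye_KO cells after thinning, the log2 ratio was -2.0 (-2.18 to -1.82) for Spp1, -0.98 for Fabp5, -0.79 for Ctsd and -0.45 for Apoe. In those without C1qa it was -0.48 (-0.63 to -0.33) for Spp1, -0.19 (-0.46 to 0.09) for Fabp5, -0.42 for Ctsd and -0.10 for Apoe. Gpnmb differed by a like amount in both, at -1.61 and -1.49. Macrophages with a UMI of Arg1, the arginase of M2-like and tumor macrophages, made up 19.7% and 9.40%. In them Apoe differed by -1.01 (-1.09 to -0.93) against -0.17 in the others. Spp1 differed less with Arg1, at -0.34 (-0.52 to -0.16) against -1.22, as did Gpnmb, at -0.73 (-1.31 to -0.15) against -1.53. The intervals of Lgals3, Fabp5, Lpl and Cd9 held 0 with Arg1. With a UMI of Ly6c2 (8.71% and 7.17%), every member with a ratio had an interval that held 0, Spp1 among them at -0.45 (-1.03 to 0.14). These were only 191 and 186 thinned cells, which left wide intervals, such as -1.53 to 0.85 for Trem2. The shares of all genes were not taken within the classes by C1qa, Arg1 and Ly6c2. Whether the difference between libraries differed between these classes was not tested.

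Of 20 further genes of lipid-associated macrophages, 5 were called lower in Mye_KO macrophages and 0 higher, against 3.81% and 1.83% of all genes, with a median log2 ratio of -0.25 against -0.06. These were Fabp4 at -1.47 (0.10 and 0.038 UMIs per 10000), Syngr1 at -0.92, the lipoprotein gene Apoc2 at -0.83 (1.80 and 1.01), Lgals1 at -0.80 and the actin-capping Capg at -0.69. Cd36, the scavenger receptor, was at -0.51 and Plin2, which coats lipid droplets, at -0.26. Among those on the other side of 0 were the lysosomal genes Hexa at 0.22 and Lipa at 0.10.

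Partners of the members were read against the same 3.81% of genes called lower and 1.83% called higher. Of the 10 measured receptors and efflux genes, Lrp1, which takes up Apoe-bearing particles, was called lower at -0.72, while the cholesterol exporter Abca1 was at -0.17 (6.47 and 5.74). None of the 8 genes of Trem2 signalling was called, with the adaptor Tyrobp at -0.30 and the kinase Syk at 0.04. None of 7 osteopontin receptors was called, and their median was 0.20, with Cd44 at 0.21 and Itga9 at 0.44. None of the 5 measured lipoprotein lipase partners and none of 6 other tetraspanins was called. Of 4 other galectins Lgals1 was called, and of 5 other fatty acid binding proteins Fabp4 alone reached the filter of 0.1 on the level.

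Among 9 other cathepsins and their inhibitors, Cstb, which inhibits cathepsins such as Ctsb, was called lower at -0.86 (7.65 and 4.21), Ctsl was at -0.45 and Ctss at -0.02. Among 13 genes of lysosomes, Atp6v0d2, a subunit of the proton pump in macrophages and osteoclasts, was called lower at -1.91 (-2.16 to -1.65), with 0.37 and 0.10. Lamp1 and Psap were both at -0.08. Of the transcription factors, Tfeb was at -0.02, Tfe3 at -0.04 and Mitf at 0.33 (0.25 to 0.42).

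Splitting macrophages by Mrc1 was tied to depth. Mrc1 had a UMI in 833 of 2208 F/F macrophages (37.7%, 35.7 to 39.8) and in 1223 of 2601 Mye_KO macrophages (47.0%, 45.1 to 49.0). Cells with Mrc1 had medians of 10915 and 18462 UMIs, against 5854 and 6139.5 in cells without it. After thinning, Mrc1 was found in 12.3% and 19.4%, against 1.13% and 1.06% of T cells. Values are therefore given both as deposited and thinned.

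As deposited, Apoe was 206.7 with Mrc1 and 67.5 without it in F/F, and 158.3 and 53.7 in Mye_KO, log2 ratios of 1.61 (1.60 to 1.63) and 1.56 (1.54 to 1.58). Ctsb was 20.5 and 11.2 in F/F and 18.7 and 10.1 in Mye_KO. Trem2, Gpnmb and Fabp5 were also called higher in both libraries, and Lpl in F/F only, at 1.02 against 0.23 (0.03 to 0.43) in Mye_KO. In all, 6 members were called higher in F/F (9.33% of genes) and 5 in Mye_KO (10.7%), and 0 were called lower in either (6.67% and 9.44%). Whether Lpl differed between the libraries in this respect was not tested.

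After thinning, Apoe was the only member called higher, at 203.4 against 109.9 in F/F and 178.6 against 84.3 in Mye_KO, 1 member each against 12.4% and 10.4% of genes. Ctsb, at 0.27 (0.13 to 0.41) and 0.58 (0.47 to 0.69), stayed on the same side. Gpnmb, at -0.25 and 0.08, and Lpl, at -0.28 and -0.39, had intervals that held 0. Thinning also redrew the split, since fewer cells kept a UMI of Mrc1. With the split as deposited, cells of 1000 to 3000 UMIs gave -0.50 (-1.41 to 0.41) for Gpnmb in F/F and -1.17 (-2.14 to -0.20) for Lpl in Mye_KO, and the other 2 ratios rested on too few UMIs. Cells of 3000 to 10000 UMIs gave 0.62 (0.30 to 0.94) for Gpnmb and 0.98 (0.60 to 1.36) for Lpl in F/F, and -0.05 (-0.58 to 0.48) and 0.69 (0.24 to 1.15) in Mye_KO. Cells above 10000 UMIs gave 0.22 (0.12 to 0.31) and -0.03 (-0.17 to 0.12) in F/F and 1.03 (0.88 to 1.19) and 0.50 (0.35 to 0.66) in Mye_KO, so the ratios of both genes varied with the depth class. Spp1 was 3.00 with Mrc1 against 9.19 without it in F/F and 1.01 against 4.33 in Mye_KO, at -1.62 (-1.94 to -1.29) and -2.10 (-2.51 to -1.69). Spp1 and Lgals3 (-0.66 and -0.67) were called lower in both libraries and Cd9 in F/F (-0.96, with -0.58 in Mye_KO), 3 and 2 members against 4.20% and 4.28% of genes.

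**Figure D3:**
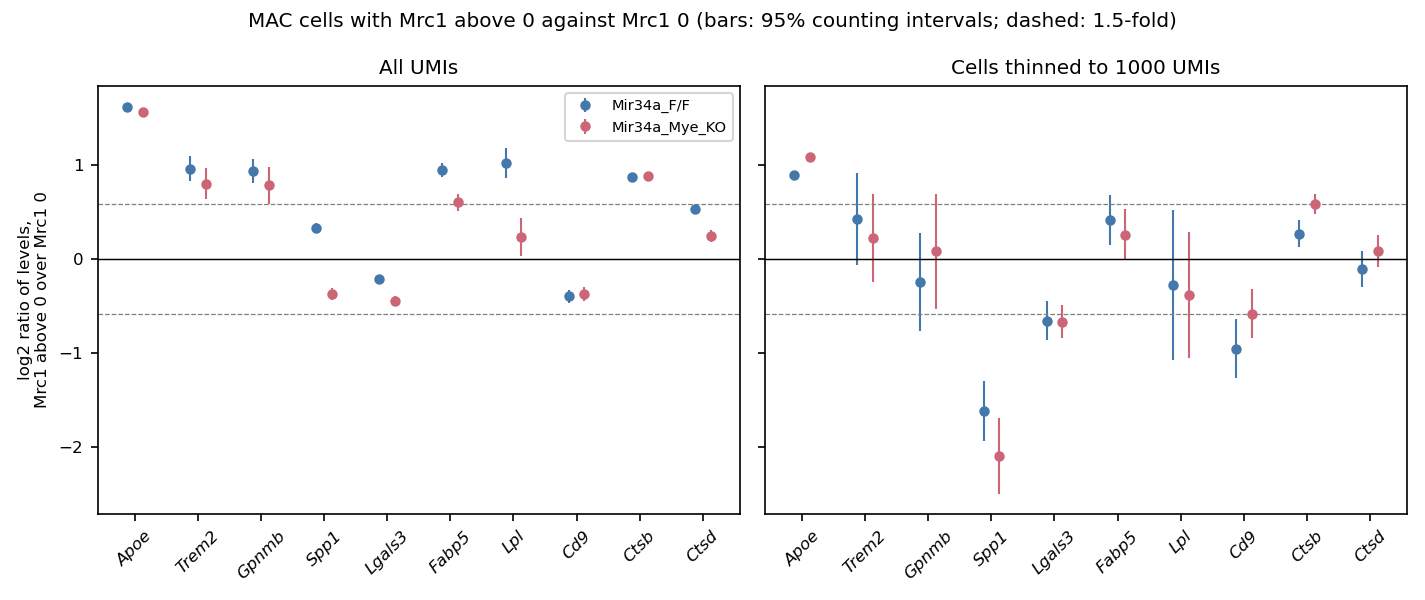
Log2 ratio of levels in MAC with a UMI of Mrc1 over MAC without one (y axis) for the 10 mRNAs (x axis) in the Mir34a_F/F (blue) and Mir34a_Mye_KO (red) libraries, with all UMIs (left) and with each cell thinned to 1000 UMIs (right). Bars are 95% counting intervals and dashed lines 1.5-fold, and the ratio of Apoe stays above 1.5-fold in both panels while that of Spp1 falls to -1.62 and -2.10 in the right one.

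Spp1 was the member for which the split gave different signs as deposited, at 0.33 (0.28 to 0.38) in F/F and -0.37 (-0.44 to -0.31) in Mye_KO. Within depth classes its ratios in F/F were -0.71, -1.04 and -0.12 from shallow to deep cells, and in Mye_KO -0.31, 0.89 and -1.27. The sum of monocyte markers moved with the split as well, at 28.1 and 20.1 in macrophages without Mrc1 and 5.45 and 5.11 in those with it. That of the 8 macrophage markers moved the other way, at 30.2 and 33.8 against 84.2 and 87.1. Erythroid markers were at 0.70 without and 5.66 with Mrc1 in F/F and at 0.11 and 0.070 in Mye_KO, and at 2.57 and 0.090 in all macrophages. Their part in the Mrc1 split was not tested.

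The library difference was also taken within Mrc1 classes. In macrophages without Mrc1, 3 members were called lower in Mye_KO (5.23% of genes), Gpnmb at -1.36, Spp1 at -0.92 and Cd9 at -0.66. In those with Mrc1, 6 were called lower (5.76%), with Spp1 at -1.63 (-1.68 to -1.57), Gpnmb at -1.51, Fabp5 at -0.86, Ctsd at -0.77, Lpl at -0.68 and Cd9 at -0.63. Lpl was at 0.11 (-0.11 to 0.33) without Mrc1, so its lower level was found in Mrc1-positive macrophages, where the cells were also deeper.

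The members did not occupy macrophages evenly. The 10% of macrophages with the highest values held 88.0% (F/F) and 97.6% (Mye_KO) of the summed level of Gpnmb, 78.9% and 85.2% of that of Spp1 and 82.6% and 83.0% of that of Lpl. For Lgals3 these shares were 27.9% and 29.2%, for Apoe 43.7% and 36.5% and for the sparse Trem2 50.2% and 52.5%. Other genes of like level were not compared. Single cells reached 525.2 and 917.6 UMIs per 10000 for Spp1 and 88.2 and 73.4 for Gpnmb, while the medians were 0.69 and 0 for Spp1 and 0 in both for Gpnmb. Before thinning, a UMI was found in 21.1% and 13.1% of macrophages for Gpnmb, in 52.7% and 39.4% for Spp1 and in 93% and 92.3% for Lgals3. The level of Gpnmb and Spp1 thus rested on few cells, although Spp1 was detected in most F/F macrophages before thinning. After thinning, Spp1 had a UMI in 24.5% of F/F macrophages without Mrc1 and in 14.1% of those with it. The part of background RNA in this detection was not tested.

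After thinning, a macrophage held a UMI of a median of 3 of the 10 members in both libraries. At least 6 were found in 291 of 2193 F/F macrophages (13.3%, 11.9 to 14.8) and in 116 of 2595 Mye_KO macrophages (4.47%, 3.71 to 5.34), exact binomial intervals that treat cells as independent. Cells with 0 members were 0.96% and 2.24%. In thinned T cells, for comparison, at least 6 members were found in 3 of 3004 and 1 of 2642 cells, with medians of 2 and 1 members.

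**Figure D4:**
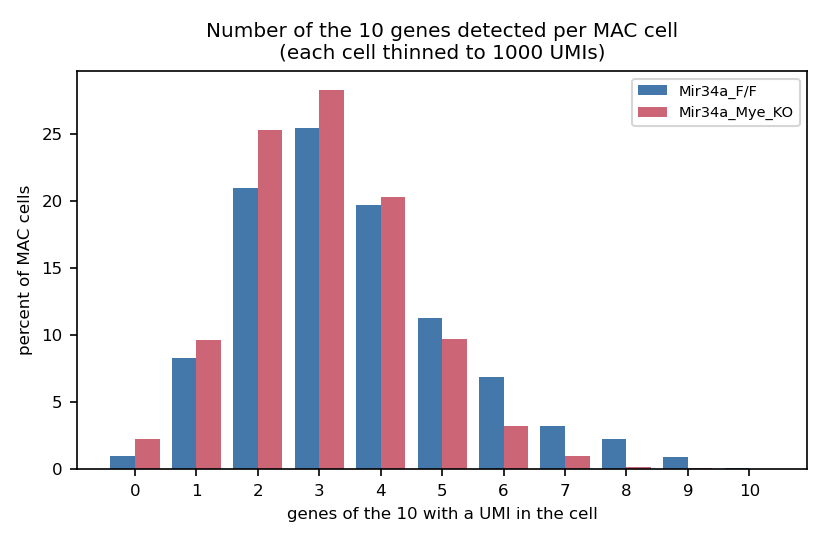
Percent of MAC cells (y axis, bars) by the number of the 10 mRNAs with a UMI (x axis) after thinning each cell to 1000 UMIs, for the Mir34a_F/F (blue) and Mir34a_Mye_KO (red) libraries. Both libraries peak at 3, and the F/F bars are the taller ones from 5 upward.

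Macrophages with a UMI of Gpnmb after thinning, 179 of 2193 (8.16%) in F/F and 82 of 2595 (3.16%) in Mye_KO, held most other members at higher levels. Spp1 was 31.9 against 6.35 in F/F and 10.6 against 3.46 in Mye_KO, log2 ratios of 2.33 (2.19 to 2.47) and 1.62 (1.30 to 1.93). Ctsd was 35.3 against 7.39 and 26.5 against 5.76, at 2.26 and 2.20. Fabp5 was 11.8 against 3.13 and 10.4 against 2.17, at 1.92 and 2.25. In all, 8 of 9 members were called higher in F/F (10.5% of genes) and 6 of 8 in Mye_KO (11.6%). Cd9 was not, at 0.21 (-0.06 to 0.48) and 0.25 (-0.22 to 0.73), and neither was Trem2 in Mye_KO, at 0.73 (-0.14 to 1.61). Of genes of the fixed lists, Syngr1 was 1.84 against 0.34 and 1.59 against 0.22. The lysosomal Atp6v0d2 was 3.02 against 0.21 in F/F and 0.24 against 0.07 in Mye_KO, where it rested on too few UMIs for a ratio. Apoc2, Fabp4, Lgals1 and Capg were compared as well and are not given, so Syngr1 and Atp6v0d2 do not stand for the lists. Other genes moved with this split, C1qa at 18.9 against 13.1 and 21.7 against 15.9, Arg1 at 7.04 against 4.36 and 3.29 against 2.11, and Ly6c2 at 0.39 against 1.42 in F/F and 1.46 against 1.18 in Mye_KO, and their part was not tested. The Gpnmb-positive cells were deeper before thinning, with medians of 12515 against 7048.5 UMIs in F/F and 19068 against 11185 in Mye_KO.

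Macrophages were also split by Trem2. With a UMI of Trem2, 7 of 9 members were called higher in F/F (7.86% of genes) and 5 in Mye_KO (5.89%). Gpnmb was at 1.73 and 1.24, Ctsd at 1.47 and 1.20, and Apoe at 1.26 and 0.80. Spp1 was 17.2 against 7.46 in F/F, at 1.21 (1.04 to 1.37), and 4.08 against 3.65 in Mye_KO, at 0.16 (-0.17 to 0.49). Whether this ratio of Spp1 differed between the libraries was not tested.

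Splits by C1qa, Arg1 and Ly6c2 separated the members further. With C1qa, 7 of 10 members were called higher in both libraries (8.52% and 8.46% of genes), led by Apoe at 2.74 and 2.38, and Cd9 was lower at -0.31 and -0.46. Spp1 had opposite signs, 9.46 against 7.49 in F/F and 2.36 against 5.37 in Mye_KO, at 0.34 (0.20 to 0.47) and -1.19 (-1.38 to -0.99). With Arg1, 3 members were called higher in F/F (6.14%) and 5 in Mye_KO (9.01%), and Spp1, Cd9 and Gpnmb were among them in both. Apoe was called lower with Arg1 in Mye_KO, at -0.75, the 1 member so called against 4.95% of genes. Spp1 was 18.5 against 5.95 and 14.6 against 2.55, so Arg1-positive macrophages of both libraries held Spp1 at a high level.

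With a UMI of Ly6c2, a monocyte gene, 7 of 8 members with a ratio were called lower in F/F (8.13% of genes) and 5 of 8 in Mye_KO (7.55%). Apoe was 19.5 against 131.2 and 20.3 against 109.0, at -2.75 and -2.43. Lgals3 was higher in Ly6c2-positive cells, at 0.32 (0.13 to 0.51) and 0.94 (0.76 to 1.12), and was called higher in Mye_KO, where 17.0% of genes were, and not in F/F, where 11.2% were. Trem2 at -0.66 (-1.57 to 0.26) and Cd9 at -0.13 (-0.50 to 0.23) were not called in Mye_KO.

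**Figure D5:**
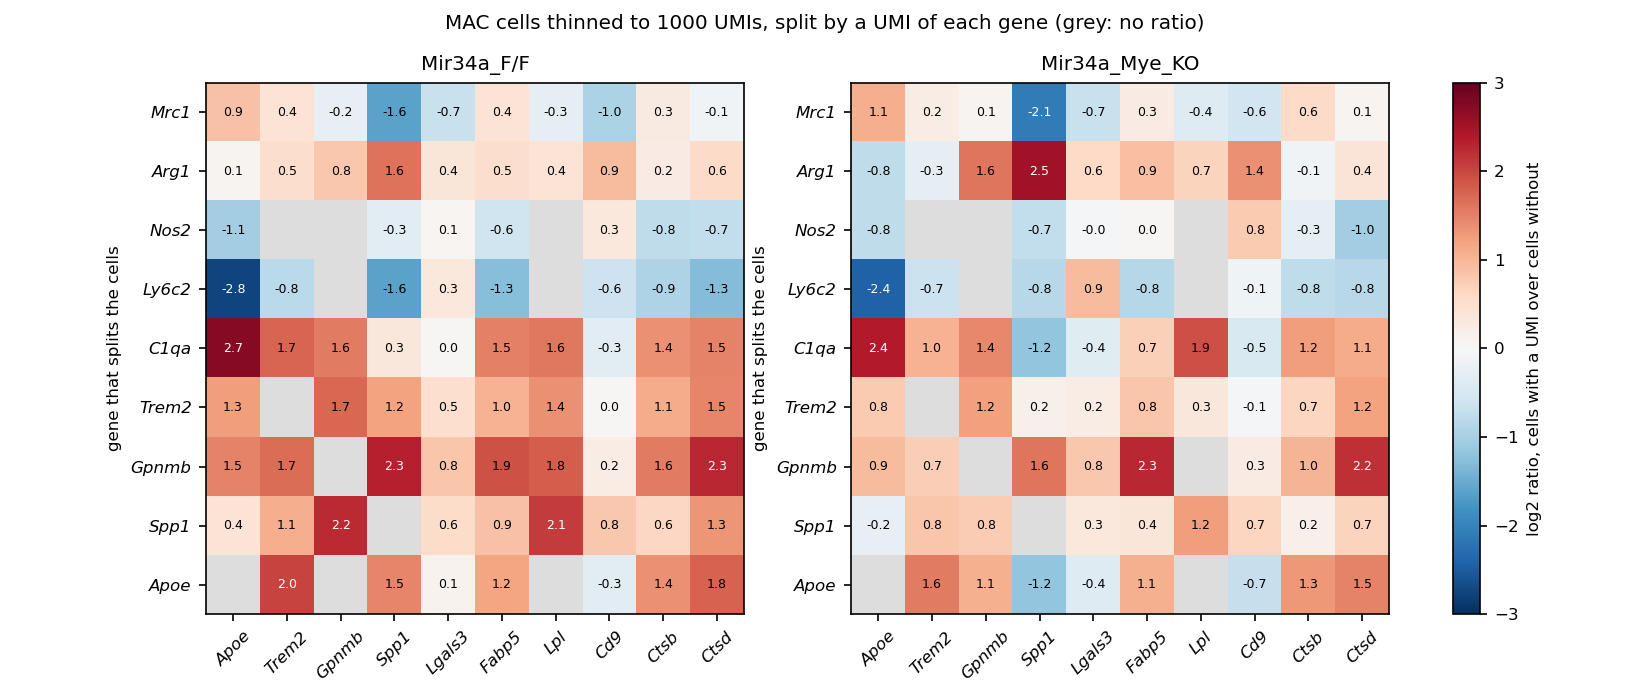
Log2 ratio of levels in thinned MAC with a UMI of the gene on the y axis over MAC without one, for the 10 mRNAs on the x axis, in the Mir34a_F/F (left) and Mir34a_Mye_KO (right) libraries. Red is higher, blue lower, and grey has no ratio, and the rows of Trem2 and Gpnmb are mostly red, with Cd9 near 0 in both and Spp1 near 0 in the Trem2 row of Mye_KO, whereas the column of Spp1 changes colour between the libraries in the rows of C1qa and Apoe.

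Correlations between members over thinned macrophages were low. Spearman's rho was highest for Apoe and Ctsb, at 0.50 in F/F and 0.46 in Mye_KO, followed by Apoe and Ctsd at 0.35 and 0.26 and by Ctsb and Ctsd at 0.35 and 0.25. Gpnmb and Ctsd were at 0.32 and 0.15. Apoe and Lgals3 were at 0.04 and -0.13, and Apoe and Cd9 at -0.05 and -0.08. These values describe cells of the same library that were thinned to the same depth. Few thinned cells held a UMI of Trem2, Gpnmb or Lpl, which keeps rho low for them whatever their co-expression. Pairs of other genes of like level were not compared.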

How the data were processed

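CACs were profiled with the 10x 3′ v3.1 kit. Per the labels, reads were counted with Cell Ranger 7.2.0 and the build was mm10. Doublets were excluded by the authors with Scrublet, and LogNormalize of Seurat was applied, so the deposited values are the natural log of 1 plus UMIs per 10000. The deposited cell types were used as given.

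The log was undone, which gave whole UMIs (deviation at most 1.5e-10). UMIs per 10000 were averaged over the cells of a group, with a gamma interval for weighted counts. The stated limit of under 25% mitochondrial content would leave 17842 and 14441 cells, but all cells of the table were kept. Ratios needed 10 UMIs in both groups, and genes compared as background a mean of at least 0.1. Cells of at least 1000 UMIs were thinned to 1000 at random with a fixed seed. Shares had exact binomial intervals. Code was tested on simulated counts. Python 3.11.15, numpy 2.4.6, scipy 1.17.1 and pandas 2.3.3 were used. With 1 library per genotype no p-value was computed. The members and all gene lists and splits were chosen with earlier results of these data known. Named genes are the members, the 3 genes most like each, and genes of the fixed lists. Splits of DC by Ccr7, Cd209a, Xcr1 and Siglech, of neutrophils by Gpnmb and Spp1, and of further genes by Gpnmb were added later. The library difference within classes by C1qa, Arg1 and Ly6c2 was added later too.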

Additional observations from a re-analysis of the deposited data

Results flagged for a closer look

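Effects of opposite direction in the compared groups, with both counting intervals off 0, were found for 4 patterns, and none of these differences was tested, since each rests on 1 library per genotype. The first is the library difference of Lpl, at -0.25 in macrophages and 1.09 in fibroblasts. The macrophage value depends on depth, at 1.09 from 1000 to 3000 UMIs, 0.66 from 3000 to 10000 and -1.25 above. The second is the library difference of Ctsb, at -0.0574 in macrophages, 0.33 in dendritic cells and 0.84 in fibroblasts. The macrophage value is close to the median shift of all genes, -0.0578, and so is no difference of Ctsb relative to other genes over all macrophages together. It also depends on depth, at 0.45 (0.31 to 0.60) from 1000 to 3000 UMIs, -0.07 from 3000 to 10000 and -0.44 (-0.46 to -0.42) above.

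The third pattern is Spp1 in macrophages. With Mrc1 against without it, the log2 ratio was 0.33 in the F/F and -0.37 in the Mye_KO library with all UMIs, but -1.62 and -2.10 after thinning. In thinned cells, it was 0.34 and -1.19 with C1qa and 1.47 and -1.18 with Apoe. The fourth is Apoe in thinned macrophages, at 0.0849 in F/F and -0.75 in Mye_KO with Arg1 and at 0.40 and -0.24 with Spp1.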

How the results depend on the processing

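No paired analysis was possible because each genotype has 1 library. The count of members called lower in Mye_KO macrophages was 5, stayed between 4 and 6 with summed UMIs, thinning, a pseudocount of 0.1, subtraction of T cells, other cell filters, other totals and without shared barcodes, and was 2 with a pseudocount of 1, 2 at a limit of 2-fold and 3 when averaged over depth classes (added after seeing the data). All genes called lower numbered 338 of 8875, and 1235 of 16016 without a filter on low values. They numbered 102 of 3496 at a mean of 0.5 and 63 at 2-fold. Those called higher numbered 162, 400, 67 and 35 in the same order. All genes were not counted under the other settings of the library difference. For Mrc1, the members called higher were 6 and 5 in F/F and Mye_KO, 1 and 1 after thinning, 2 and 2 averaged over depth classes and 2 and 1 at 2-fold. Those called lower were 0 and 0, but 3 and 2 after thinning and 1 and 0 over depth classes. In Mye_KO they were 2 for Mrc1 of at least 2 UMIs and 3 with summed UMIs. Shares of all genes were taken for the Mrc1 split only as deposited and thinned, so the other counts have none beside them. Thinning, which also redraws the split, turned the sign of the Mrc1 ratio of Spp1 (0.33 to -1.62, both intervals off 0), Gpnmb (0.94 to -0.25), Lpl (1.02 to -0.28) and Ctsd (0.53 to -0.11) in F/F and of Lpl (0.23 to -0.39) in Mye_KO. The sign was reversed for Cd9 in mast cells after subtraction of T cells (0.17). The members highest in macrophages numbered 6, or 7 with summed UMIs. The causes were not tested. At this depth Trem2, Gpnmb and Lpl had too few UMIs for a library ratio in basophils, erythroid cells and endothelial cells.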
